A study of Mus musculus with 75 samples.

Results

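Elastic fiber genes were followed in the lungs of mice with bleomycin (BLEO)-induced pulmonary fibrosis. The group was set by name, with earlier results of these data known. It comprised 10 genes of the 55536 in the count table: *Eln*, *Fbn1*, *Fbn2*, *Mfap4*, *Mfap5*, *Fbln1*, *Fbln2*, *Fbln5*, *Efemp2* and *Emilin1*. All 10 passed the filter on low counts and were among the 16221 genes tested. The 75 libraries each came from the right inferior lobe of 1 male C57BL/6JRj mouse. There were 10 controls (CTRL) and 65 mice given BLEO (BLEO-IPF), of which 10 were killed on day 7, 12 per group on day 14, day 21, day 28 and day 35, and 7 on day 42.

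Mice of all groups, CTRL included, are given as 12 to 14 weeks old, which for BLEO-IPF mice is the age when dosed. BLEO-IPF mice had received bleomycin sulphate once into the trachea. BLEO is a cytostatic drug that damages lung epithelium. Only mice whose weight loss was mild to moderate by day 6 entered a group, and the lungs had been lavaged before they were removed. Controls are called saline mice in the sample labels but untreated in the treatment protocol. CTRL mice have no day of their own in the labels, so all 6 days were compared with the same 10 mice. Age when killed or time in the facility therefore cannot be told apart from BLEO.

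Elastic fibers give the lung its recoil. Tropoelastin, the product of *Eln*, is deposited on a scaffold of microfibrils made of fibrillins, is brought together with lysyl oxidases by fibulins and is then cross-linked into an insoluble core. Most elastin is laid down while alveoli form, and adult tissue makes little of it. In fibrosis elastic fibers accumulate beside collagen, and microfibrils also hold latent TGF-β.

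Total counts were 9240291 to 14665247 per library. Lung epithelial markers (*Sftpc*, *Sftpb*, *Ager* and *Scgb1a1*) summed to 35566 to 45837 counts per 1000000 (CPM) in CTRL mice and to 7569 to 33355 on day 14, the lowest of the groups. Levels below are CPM after scaling, given as the lowest, median and highest mouse of a group. A log2 fold change (log2FC) is given ± its standard error with an adjusted p from edgeR's quasi-likelihood test, and "rose" or "fell" is used at an adjusted p under 0.05. In whole-lobe RNA, more cells of a type and more RNA per cell cannot be told apart.

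Between 6 and 9 of the 10 elastic fiber genes rose on each day, and their median log2FC was highest on day 14. On day 7, 6 of the 10 rose and none fell, while 24.8% of all genes tested rose. On day 14, 9 rose against 32.4% of all genes, and 1 fell against 29.9%. Later, 9 rose on day 21 (28.3% of all genes), 8 at day 28 (24.1%), 6 at day 35 (16.9%) and 6 at day 42 (13.7%). Apart from day 14 no member fell, while 21%, 25.8%, 19.2%, 13.1% and 11% of all genes fell on days 7, 21, 28, 35 and 42. *Eln*, *Fbn1*, *Efemp2*, *Mfap5* and *Emilin1*, 5 of the 10, rose on all 6 days, as did 8.33% of all genes. *Fbln1* alone rose on none. All mice of a day lay above all CTRL mice for 4, 6, 4, 3, 3 and 5 members in the order of days, against 7.39%, 9.46%, 6.84%, 2.1%, 2.43% and 4.22% of all genes. The median log2FC of the members was 0.68, 1.39, 1.26, 1.06, 0.54 and 0.34 in that order, whereas the median over all genes tested stayed between -0.0024 and 0.018.

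**Figure D1:**
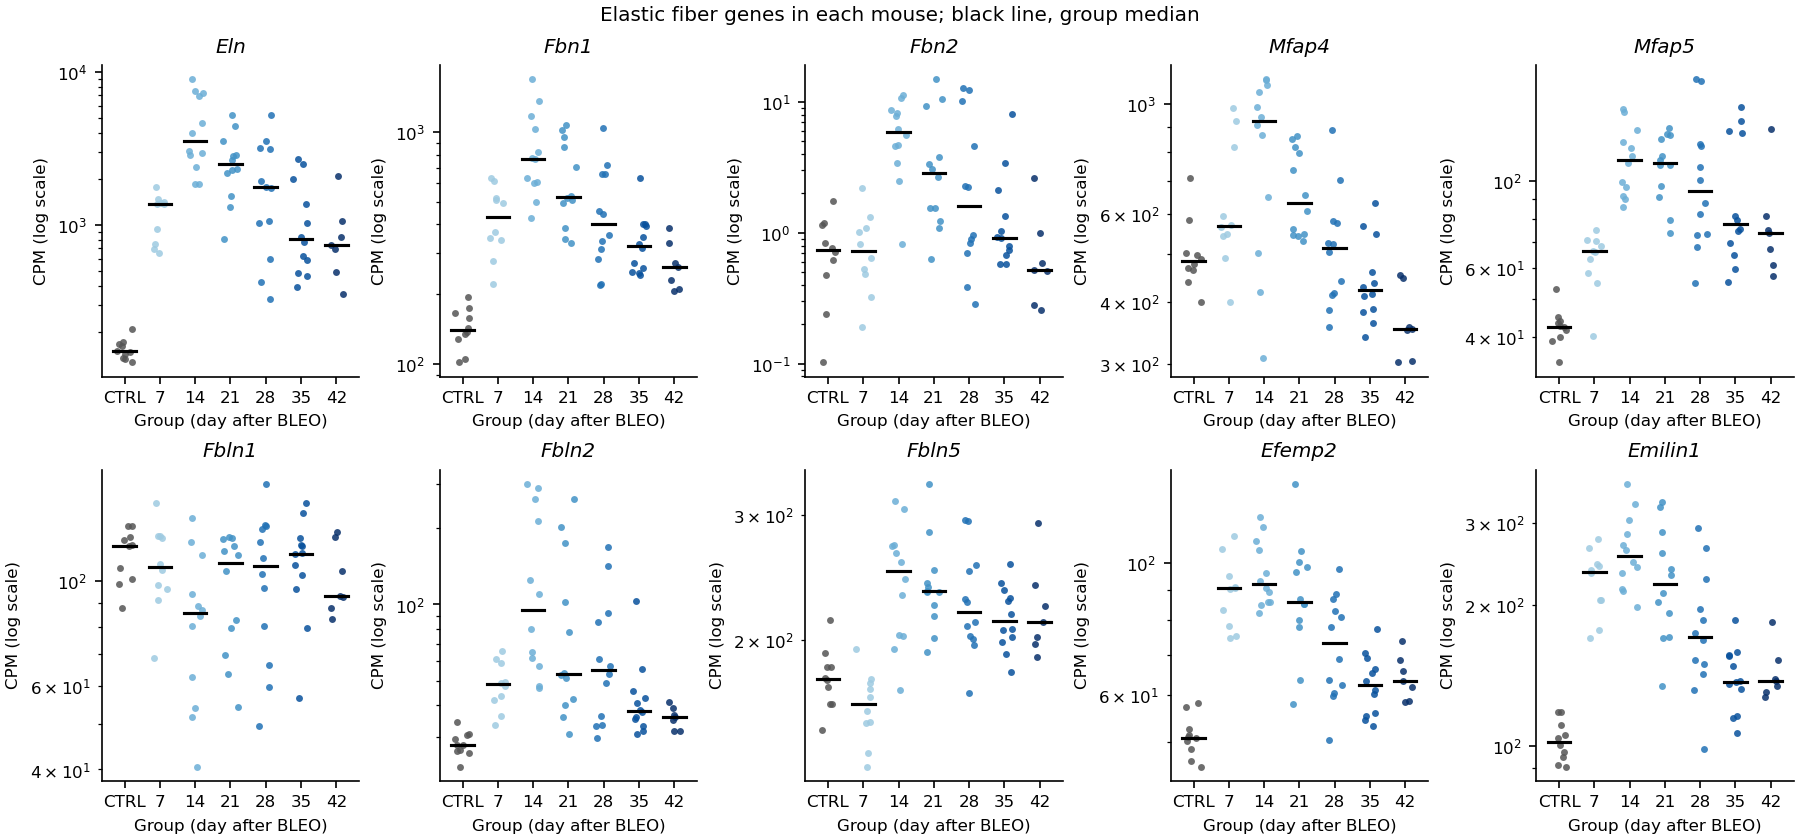
CPM of each elastic fiber gene (vertical, log scale) in each mouse by group (horizontal, CTRL and day after BLEO). Points are mice and black lines are group medians. *Eln* medians run from 149 in CTRL to 3504 on day 14 and 734 on day 42, while the mice of *Fbln1* overlap between all groups.

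*Eln*, the gene of tropoelastin (chromosome 5, 134702593 to 134747323, minus strand, GRCm38), had the largest log2FC of the 10 members on each of the 6 days. It lay at 126, 149 and 207 CPM in CTRL mice. On day 7 it was at 656, 1362 and 1762 CPM, and on day 14 at 1839.7, 3504 and 8909.9 CPM. Every mouse of both days was above every CTRL mouse. The log2FC was 2.94 ± 0.38 on day 7 (adjusted p = 3.65e-09) and 4.87 ± 0.41 on day 14 (adjusted p = 8.67e-16), a 29.3-fold increase. By mean CPM *Eln* ranked 1325 of the 16221 genes in CTRL mice, 60 on day 7 and 6 on day 14, when it took up to 0.817% of all counts of a library.

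*Eln* then declined but did not return to the CTRL level. It was at 806, 2482 and 5189.9 CPM on day 21, and at 389.9, 801 and 2678 CPM on day 35. By day 42 it was at 355, 734 and 2092 CPM. No BLEO-IPF mouse of any day reached down to the CTRL range, although day 28 mice spread 15.9-fold, from 329 to 5227 CPM. On day 42 the log2FC was 2.54 ± 0.40 (adjusted p = 1.53e-06), and the mean excess over CTRL was 17.0% of that on day 14.

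*Fbn1* encodes fibrillin-1, the main fibrillin of adult microfibrils (chromosome 2, 125300594 to 125507993, minus strand). It was at 101, 140.0 and 194 CPM in CTRL mice and at 221, 432 and 635 CPM on day 7. On day 14 it reached 425, 768 and 1687 CPM, and on day 42 it was at 206, 262 and 385 CPM. As for *Eln*, no mouse of any BLEO-IPF group overlapped with CTRL. Its log2FC was 1.59 ± 0.24 on day 7 (adjusted p = 1.38e-07), 2.59 ± 0.24 on day 14 (adjusted p = 2.30e-14) and 0.91 ± 0.26 on day 42 (adjusted p = 0.00619).

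*Fbn2* encodes fibrillin-2, which is best known from developing tissue (chromosome 18, 58008623 to 58210487, minus strand). It was close to the limit of detection, with 1, 8 and 19 counts in CTRL libraries, or 0.102, 0.740 and 1.76 CPM. On day 7 it was at 0.192, 0.732 and 2.21 CPM, on day 14 at 0.821, 5.93 and 11.3 CPM, and on day 42 at 0.259, 0.519 and 2.61 CPM. Day 14 stood out, with 11 of 12 mice above every CTRL mouse, whereas mice of days 7 and 42 overlapped with CTRL. *Fbn2* rose on days 14 (log2FC 2.96 ± 0.57, adjusted p = 8.99e-06), 21 (2.48 ± 0.57, adjusted p = 2.05e-04) and 28 (2.34 ± 0.57, adjusted p = 6.96e-04). It had a median of 2.88 CPM on day 21 and 1.60 CPM on day 28, with 7 and 6 of 12 mice above every CTRL mouse. On day 7 its log2FC was 0.13 ± 0.65 (adjusted p = 0.892), a time at which *Eln* and *Fbn1* had already risen. Its spread between mice was 17.2-fold in CTRL and 44.9-fold on day 28, from 0.285 to 12.8 CPM.

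Microfibril-associated proteins bind fibrillin microfibrils. *Mfap5*, also known as MAGP-2 (chromosome 6, 122505845 to 122529290, plus strand), was at 34.5, 42.5 and 52.9 CPM in CTRL mice. It was at 40.2, 66.2 and 75.1 CPM on day 7 and at 85.9, 113 and 153 CPM on day 14. On day 42 it was still at 57.3, 73.5 and 136 CPM, above every CTRL mouse in 7 of 7 mice. The log2FC was 0.57 ± 0.17 on day 7 (adjusted p = 0.00455), 1.43 ± 0.17 on day 14 (adjusted p = 4.43e-11) and 0.88 ± 0.19 on day 42 (adjusted p = 2.54e-04). Its mean excess on day 42 was 50.2% of that on day 14, against 17.0% for *Eln* and 17.6% for *Fbn1*. *Fbln5* kept more, 67.1%, while *Efemp2*, *Emilin1*, *Fbln2* and *Fbn2* kept 29.2%, 25.3%, 6.87% and 0.697%. The day 42 means include replicate 7, the highest mouse for *Mfap5*, *Eln*, *Fbn1*, *Fbln5* and *Fbn2*. It had 136 CPM of *Mfap5* against 57.3 to 81.2 in the others.

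*Mfap4*, which binds elastin and fibrillin and is abundant in lung (chromosome 11, 61485431 to 61488900, plus strand), behaved differently. In CTRL mice it was at 401, 483 and 708 CPM, on day 14 at 309, 924 and 1119.8 CPM, and on day 42 at 302, 353 and 454 CPM. Day 14 mice split widely, 8 of 12 above every CTRL mouse and 1 below every one. On day 42, 5 of 7 were below every CTRL mouse. *Mfap4* rose on day 14 (log2FC 0.72 ± 0.16, adjusted p = 6.50e-05) and day 21 (0.42 ± 0.16, adjusted p = 0.0203). Its log2FC was 0.36 ± 0.16 on day 7 (adjusted p = 0.0662) and -0.45 ± 0.18 on day 42 (adjusted p = 0.0574). Both values lay near the threshold, and DESeq2 gave an adjusted p of 0.0453 for day 42. *Mfap4* shares 89 exon bases with *Mapk7* on the other strand, which had 5.03% as many counts.

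*Emilin1* encodes a glycoprotein at the interface between elastin and microfibrils (chromosome 5, 30913402 to 30921277, plus strand). CTRL mice had 90.4, 102 and 118 CPM, and day 7 mice 170.2, 236 and 277 CPM. On day 14 it was at 199, 255 and 364 CPM, and on day 42 at 128, 138 and 184 CPM. The mice of days 7, 14, 21 and 42 were all above the CTRL mice. Most of its rise was present on day 7, with a log2FC of 1.13 ± 0.13 (adjusted p = 1.52e-10) against 1.36 ± 0.13 on day 14 (adjusted p = 3.62e-14) and 0.48 ± 0.14 on day 42 (adjusted p = 0.0101).

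**Figure D2:**
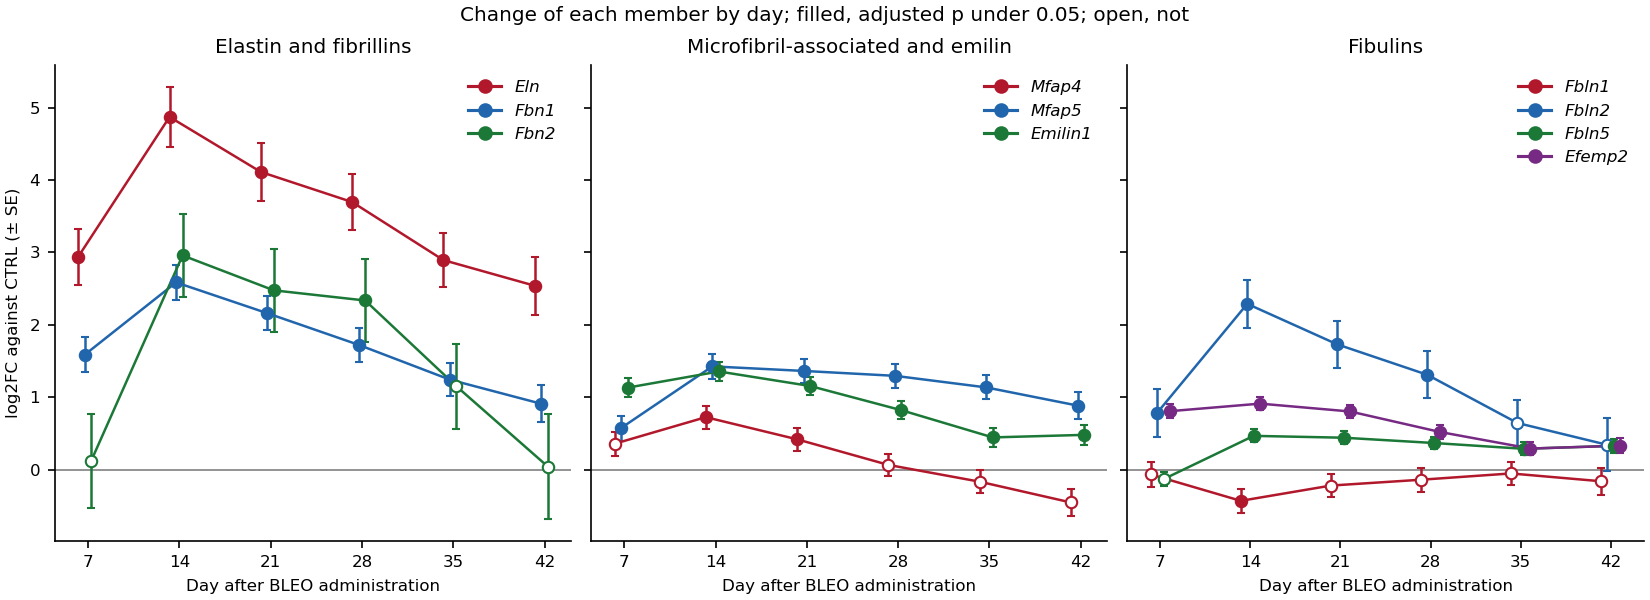
log2FC against CTRL (vertical, ± SE of the fit) by day after BLEO (horizontal) for elastin and the fibrillins, the microfibril-associated genes with emilin, and the fibulins. Filled points have an adjusted p under 0.05; *Eln* peaks at 4.87 on day 14, and *Fbln1* reaches its lowest value, -0.43, on the same day.

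The fibulins did not move together. Fibulin-4 (*Efemp2*) and fibulin-5 (*Fbln5*) are needed for elastic fiber assembly, and fibulin-1 and fibulin-2 (*Fbln1* and *Fbln2*) bind elastin and basement membranes. *Fbln1*, *Fbln5* and *Efemp2* have 2, 2 and 3 RefSeq starts, and the start nearest the annotated beginning of each gene was used. The 250 bases before it (GRCm38.p6) are shown because these fibulins differed in direction and timing. Capitals mark CAGAC, a short motif bound by SMAD factors, on either strand. *Fbln1* is at chr15:85205699-85205948 on the plus strand, *Fbln5* at chr12:101819120-101819369 on the minus strand and *Efemp2* at chr19:5473696-5473945 on the plus strand.
Fbln1: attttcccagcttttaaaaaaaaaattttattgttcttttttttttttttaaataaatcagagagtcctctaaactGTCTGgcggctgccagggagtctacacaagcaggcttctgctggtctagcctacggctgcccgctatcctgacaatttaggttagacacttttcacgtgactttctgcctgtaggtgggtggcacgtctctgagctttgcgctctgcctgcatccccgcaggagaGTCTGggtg
Fbln5: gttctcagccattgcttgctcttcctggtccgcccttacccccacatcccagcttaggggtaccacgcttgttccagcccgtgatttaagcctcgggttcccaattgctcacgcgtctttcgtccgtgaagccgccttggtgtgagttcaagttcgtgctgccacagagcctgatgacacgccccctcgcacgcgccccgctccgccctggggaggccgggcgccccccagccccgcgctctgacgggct
Efemp2: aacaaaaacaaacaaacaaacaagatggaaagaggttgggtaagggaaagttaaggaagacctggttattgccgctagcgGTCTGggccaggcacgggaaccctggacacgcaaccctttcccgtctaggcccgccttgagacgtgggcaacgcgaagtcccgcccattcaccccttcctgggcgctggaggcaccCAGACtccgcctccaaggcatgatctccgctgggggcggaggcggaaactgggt

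The motif occurred 2 times each in the *Fbln1* and *Efemp2* windows and 0 times in that of *Fbln5*. The window of *Fbln2*, which is not shown, also held it 0 times. Whether the motif bears on direction or timing was not tested. RefSeq windows were at hand for 6 members (*Fbn1*, *Emilin1* and the 4 fibulins), and 3 of them held CAGAC, as did 42.2% of all 32851 mouse promoter windows of that length. GGGCGG, the GC box, was in 4 of the 6 (32.7% of all windows). CATTCC, bound by TEAD factors, was in 0 of the 6 (12.6% of all windows), as was TGANTCA, bound by AP-1 (6.75%). Both strands were searched, and 0 matches overlapped. G and C made up 46.4% of the *Fbln1* window, 65.2% of the *Fbln5* window and 59.2% of the *Efemp2* window, against a median of 52.4% over all windows.

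*Efemp2* (chromosome 19, 5473954 to 5482517, plus strand) rose early. It was at 45.5, 50.8 and 58.2 CPM in CTRL mice, at 74.8, 90.6 and 111 CPM on day 7 and at 82.3, 92.0 and 119 CPM on day 14. All mice of both days were above CTRL. The log2FC was 0.81 ± 0.10 on day 7 (adjusted p = 4.81e-10) and 0.91 ± 0.09 on day 14 (adjusted p = 7.54e-13). On day 42 it was 0.33 ± 0.11 (adjusted p = 0.0182), a call lost without replicate 3 of that day (adjusted p = 0.0517). *Efemp2* shares 173 exon bases with *Mus81* on the other strand, which had 24.1% as many counts, and the sources used here do not say whether counting used strand, so its values are less certain than those of the other fibulins.

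*Fbln5* (chromosome 12, 101746565 to 101819055, minus strand) rose a week later. It was at 149, 176 and 213 CPM in CTRL mice and at 132, 162 and 194 CPM on day 7. From there it went to 169.9, 250.4 and 314 CPM on day 14 and was at 189, 212 and 292 CPM on day 42. Day 7 mice lay within or below the CTRL range, whereas 8 of 12 day 14 mice exceeded it. The log2FC was -0.13 ± 0.09 on day 7 (adjusted p = 0.244), 0.47 ± 0.09 on day 14 (adjusted p = 6.17e-06) and 0.33 ± 0.10 on day 42 (adjusted p = 0.0123). Without replicate 7 of day 42 the last value was 0.24 (adjusted p = 0.0801).

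*Fbln2* (chromosome 6, 91212455 to 91272540, plus strand) rose most among the fibulins on day 14 and varied most between the mice of that day. CTRL mice had 22.8, 27.9 and 34.4 CPM, and day 7 mice 33.3, 48.4 and 65.3 CPM. On day 14 it was at 46.6, 95.01 and 301 CPM, a 6.45-fold spread, and on day 21 at 30.7, 53.2 and 261 CPM. By day 42 it was at 31.5, 35.995 and 41.1 CPM, with 5 of 7 mice above CTRL. The log2FC was 2.29 ± 0.33 on day 14 (adjusted p = 1.73e-08) and 1.31 ± 0.32 on day 28 (adjusted p = 7.47e-04). It was 0.34 ± 0.37 on day 42 (adjusted p = 0.530), where a fit of only the day 42 and CTRL mice gave 0.35 (adjusted p = 8.14e-04). On day 7 it was 0.79 ± 0.33 (adjusted p = 0.0471), a call that was lost in 30 of the 75 fits that left out 1 mouse.

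*Fbln1* (chromosome 15, 85205949 to 85286535, plus strand) went the other way. It was at 87.7, 119 and 131 CPM in CTRL mice, at 40.6, 85.5 and 135 CPM on day 14 and at 83.2, 93.1 and 127 CPM on day 42. The groups overlapped, but 7 of 12 day 14 mice were below every CTRL mouse. *Fbln1* fell on day 14 (log2FC -0.43 ± 0.16, adjusted p = 0.0179), and on the other days its log2FC was between -0.22 and -0.05 with adjusted p of 0.251 to 0.842.

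Groups were also compared with each other. From day 7 to day 14, 6 of 10 rose (9.48% of all genes rose): *Fbn2* by a log2FC of 2.83 ± 0.57, *Eln* by 1.93 ± 0.36, *Fbln2* by 1.504 ± 0.32, *Fbn1* by 1.00 ± 0.23, *Mfap5* by 0.85 ± 0.16 and *Fbln5* by 0.60 ± 0.09. *Efemp2* and *Emilin1* had log2FC values of 0.10 ± 0.09 and 0.22 ± 0.12 over that week (adjusted p = 0.479 and 0.222). In the 4 later steps of a week edgeR called 0 members, as did DESeq2, while 1.03%, 0.727%, 1.27% and 0% of all genes were called in either direction. At an unadjusted p under 0.05 there were 3, 4, 6 and 0 members in those steps, against 17.1%, 12.1%, 12.7% and 5.9% of all genes. Over the 4 weeks from day 14 to day 42, 8 of 10 fell (18.8% of all genes fell). The largest declines were -2.92 ± 0.66 for *Fbn2*, -2.33 ± 0.42 for *Eln* and -1.95 ± 0.37 for *Fbln2*. *Fbln5* had -0.14 ± 0.10 (adjusted p = 0.279) and *Fbln1* 0.27 ± 0.18 (adjusted p = 0.244).

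Levels were compared between members per kilobase of exon. In CTRL lungs *Mfap4* was highest, at 261 ± 44.99 CPM per kb (SD, n = 10). *Fbln1*, *Fbln5*, *Emilin1* and *Eln* followed at 26.04 ± 3.35, 25.6 ± 2.56, 20.9 ± 2.06 and 18.98 ± 2.91 CPM per kb, and neighbours in that order overlapped between mice. *Efemp2*, *Fbn1* and *Mfap5*, at 13.5 ± 1.08, 11.9 ± 2.43 and 11.9 ± 1.32 CPM per kb, overlapped likewise. *Fbln2* at 4.43 ± 0.505 and *Fbn2* at 0.0594 ± 0.0369 CPM per kb lay apart from all others. On day 14 *Eln* was at 555 ± 306 CPM per kb (n = 12) and *Mfap4* at 432 ± 150, with overlapping mice. *Fbn1* followed at 71.3 ± 31.3 CPM per kb, and *Fbn2* remained lowest at 0.471 ± 0.245.

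The make-up of the summed members shifted accordingly. *Eln* was 4.86% ± 0.808 of the summed CPM per kb in CTRL mice (SD, n = 10), 42.1% ± 16.4 on day 14 (n = 12) and 22.9% ± 8.76 on day 42 (n = 7). *Mfap4* was 65.9% ± 3.67, 37.1% ± 16.2 and 42.9% ± 6.63 in the same groups. Neither gene's share overlapped between CTRL and day 42 mice, the highest CTRL share of *Eln* being 6.24% and the lowest on day 42 being 12.2%, and the lowest CTRL share of *Mfap4* being 61.3% and the highest on day 42 being 53.3%.

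**Figure D3:**
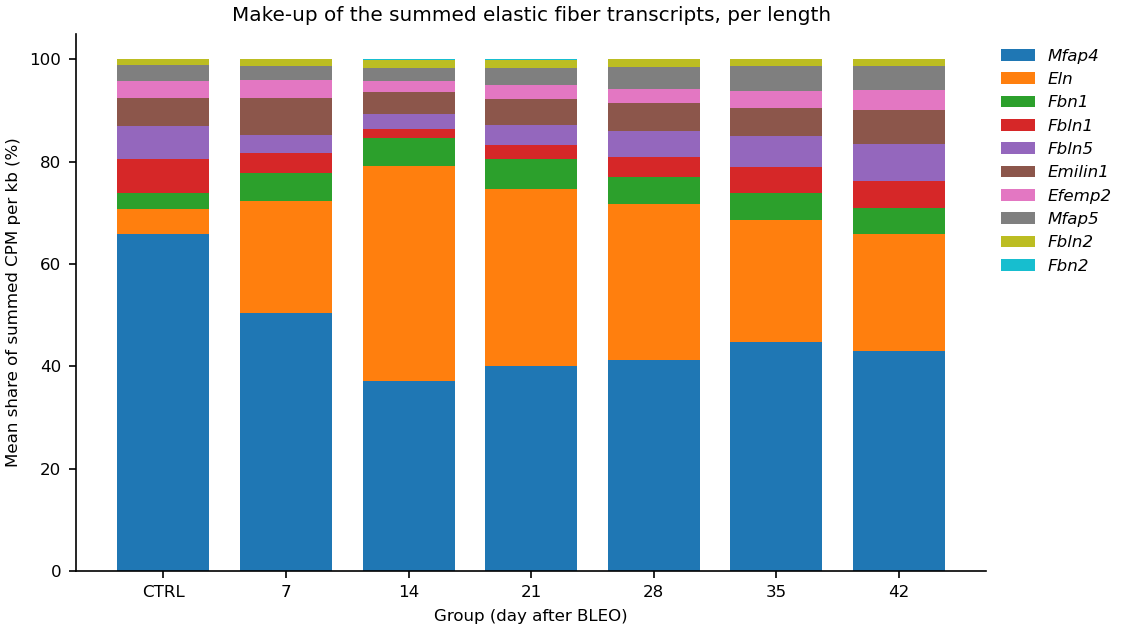
Mean share (%) of each member in the summed CPM per kb of the 10 genes (vertical) by group (horizontal). The *Eln* segment grows from 4.86% in CTRL to 42.1% on day 14 and is 22.9% on day 42, and the *Mfap4* segment goes from 65.9% to 37.1% and 42.9%.

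Count ratios within a library, which do not depend on scaling between libraries, were set against CTRL for 5 pairs and 6 days by permutation tests over mice, two-sided and adjusted over the 30 tests. The smallest unadjusted p that the 100000 resamples gave was 2e-05. *Eln* rose relative to *Fbn1*, its scaffold gene, on all 6 days, by 1.34 ± 0.14 (log2, SE) on day 7, 2.18 ± 0.14 on day 14 and 1.44 ± 0.23 on day 42 (permutation test, adjusted p = 1.64e-04, 1.00e-04 and 2.20e-04). All 7 day 42 mice had a higher ratio than every CTRL mouse. *Fbn2* fell relative to *Fbn1* on day 7 (difference -1.40 ± 0.38, permutation test, adjusted p = 0.00342), with adjusted p of 0.0631 to 0.960 on the other days.

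*Fbln2* rose relative to *Fbln1* on all 6 days, by 2.45 ± 0.45 on day 14 and 0.51 ± 0.13 on day 42 (permutation test, adjusted p = 1.00e-04 and 0.00103). The *Fbln5* to *Efemp2* ratio was lower than in CTRL on days 7, 14 and 21, with differences of -0.93 ± 0.09, -0.45 ± 0.11 and -0.34 ± 0.11 (permutation test, adjusted p = 1.64e-04, 0.00104 and 0.0129). All 10 day 7 mice were below every CTRL mouse. On day 42 the difference was -0.01 ± 0.09 (adjusted p = 0.960, permutation test). For the *Mfap5* to *Mfap4* ratio the difference from CTRL was largest on day 42. It was 0.24 ± 0.16 on day 7 (permutation test, adjusted p = 0.182), 0.77 ± 0.19 on day 14, 1.17 ± 0.15 on day 28 and 1.29 ± 0.16 on day 42 (permutation test, adjusted p = 7.88e-04, 1.00e-04 and 2.20e-04), with 7 of 7 day 42 mice above every CTRL mouse.

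**Figure D4:**
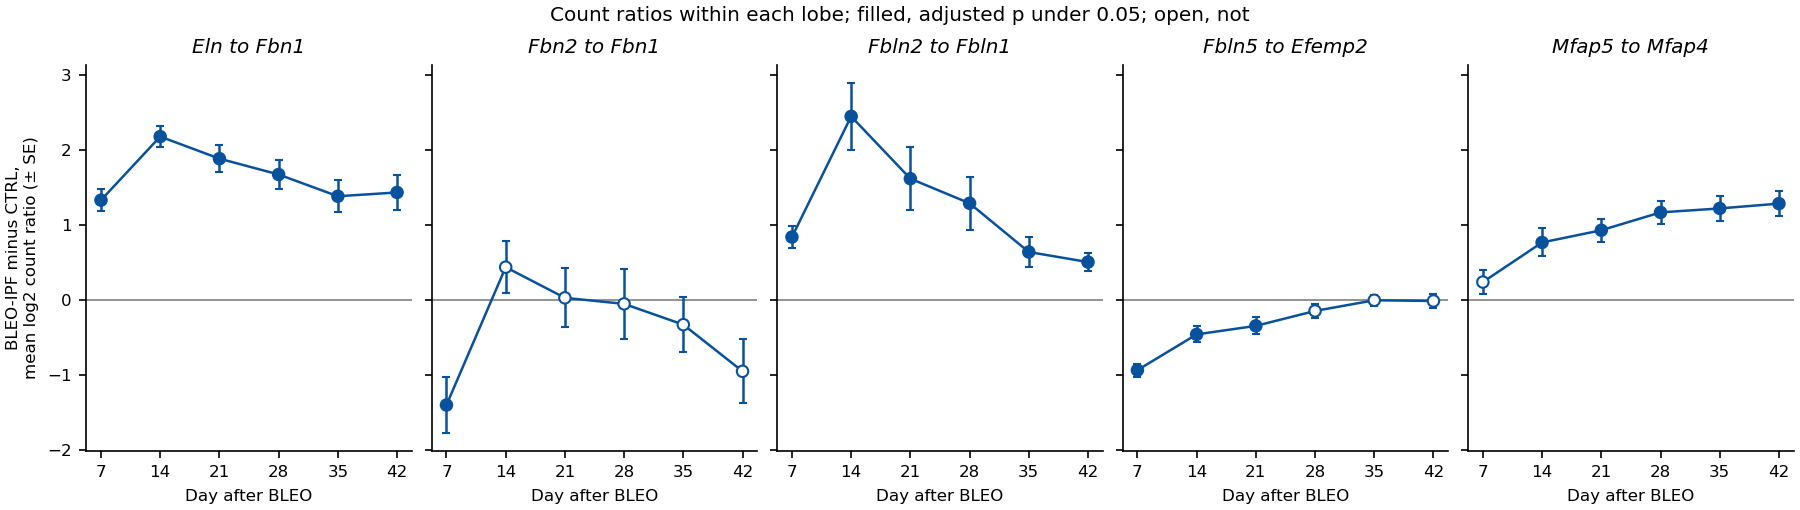
Difference between BLEO-IPF and CTRL mice in the mean log2 count ratio of 5 member pairs (vertical, ± SE over mice) by day after BLEO (horizontal); filled points have an adjusted p under 0.05. *Eln* to *Fbn1* stays between 1.34 and 2.18, *Fbln5* to *Efemp2* starts at -0.93 and ends at -0.01, and *Mfap5* to *Mfap4* ends at 1.29.

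Members that were high or low in the same mouse were counted per group. No count expected by chance was set beside these, and groups differ in size. The mouse highest in *Eln* was highest in 4 of the 10 members in CTRL, *Eln* itself included, and in 1, 2, 2, 4, 3 and 6 in the order of days. The mouse lowest in *Eln* was lowest in 1 member in CTRL and in 3, 4, 4, 4, 1 and 6 in the order of days. On day 42 the highest was replicate 7 (*Eln*, *Fbn1*, *Fbn2*, *Fbln5*, *Mfap4* and *Mfap5*), and on day 28 the lowest was replicate 10. Some members lay at the opposite end in such mice. Replicate 8 of day 14, the highest in *Eln*, was the lowest in *Fbln1* (40.6 CPM) and *Mfap4* (309 CPM). For *Fbln1*, replicate 7 of day 42 was the lowest (83.2 CPM) and replicate 10 of day 28 the highest (160 CPM). Replicate 10 of day 28 also had the highest sum of striated muscle markers, 1985 CPM against 612 CPM in the next mouse, and leaving out any 1 mouse changed no call of a member on day 28 against CTRL. Without replicate 7, the day 42 log2FC was 2.17 ± 0.40 for *Eln* (adjusted p = 4.60e-05), 0.69 ± 0.19 for *Mfap5* (adjusted p = 0.00555) and -0.52 ± 0.19 for *Mfap4*, whose adjusted p became 0.0473.

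Fibroblast markers changed over the same days. The sum of *Cthrc1*, *Postn*, *Tnc* and *Col1a1*, found in fibroblasts of fibrotic lung, was 830.0 to 1013 CPM in CTRL mice, 1810.4 to 6041 on day 14 and 959 to 1499.9 on day 42. All 4 of these rose on day 14 and 1 of 4 on day 42. Of all genes tested, 32.4% rose and 29.9% fell on day 14, and 13.7% rose and 11% fell on day 42. In a list of 4, 1 gene called is not far from these shares. The alveolar fibroblast markers *Npnt*, *Inmt*, *Limch1*, *Tcf21*, *Slc7a10* and *Ces1d* summed to 4744 to 5623 CPM in CTRL mice and to 1606 to 3063 on day 14, when 6 of 6 fell, and 5 of 6 fell on day 42. Summed adventitial fibroblast markers (*Pi16*, *Dpt*, *Col14a1* and *Clec3b*) ranged from 356 to 457 CPM in CTRL mice and from 335 to 539 on day 14, when 1 of 4 rose and 2 fell, and 2 of 4 fell on day 42.

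Of the 6 smooth muscle markers (*Myh11*, *Cnn1*, *Tagln*, *Acta2*, *Des* and *Actg2*), 4 rose and 2 fell on day 14, and their sum went from a median of 894 to 975 CPM. Mesothelial markers (*Msln*, *Upk3b*, *Upk1b* and *Wt1*) had medians of 180.1 CPM in CTRL and 273 CPM on day 14, with 1 of 4 rising. Striated muscle markers (*Myh6*, *Tnnt2*, *Tnni3*, *Ckm*, *Acta1* and *Myh4*) had medians of 53.5 and 94.5 CPM, with 1 of 4 tested rising. As 32.4% of all genes rose and 29.9% fell on day 14, 1 of 4 rising is near the share of all genes. Cartilage markers (*Col2a1*, *Acan*, *Cnmd* and *Matn1*) summed to at most 0.209 CPM in CTRL mice and 1.39 on day 14, with *Acan* at 0 in all CTRL mice. The part of these cell types in the change of the elastic fiber genes was not tested.

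Of 31 other genes of elastic fiber assembly and turnover, 28 were tested. On day 14, 21 rose (75.0%, against 32.4% of all genes) and 4 fell (14.3%, against 29.9%). On day 42, 12 rose (42.9%, against 13.7% of all genes), and 3 fell, a share of 10.7% that was near the 11% of all genes. The lysyl oxidases, which cross-link tropoelastin, rose in 5 of 5 on day 14. *Lox* was highest, from 62.96 ± 8.57 to 525 ± 325 CPM (SD, log2FC 3.06 ± 0.34, adjusted p = 6.34e-12), and *Loxl3* lowest (1.24 ± 0.18, adjusted p = 3.08e-08). On day 42, 2 of 5 were still higher, *Loxl1*, the family member tied to elastin maintenance (1.01 ± 0.16, adjusted p = 2.11e-06), and *Loxl2* (0.96 ± 0.24, adjusted p = 0.00159). *Lox* then had a log2FC of 0.83 ± 0.35 (adjusted p = 0.0720).

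The latent TGF-β binding proteins, which sit on microfibrils, split on day 14 into 3 that rose and 1 that fell (32.4% and 29.9% of all genes). *Ltbp2* went from 163 ± 15.4 to 733 ± 180 CPM (log2FC 2.17 ± 0.26, adjusted p = 1.18e-10). *Ltbp4*, a partner of fibulin-5 in elastin assembly, went from 1039 ± 99.8 to 510.5 ± 68.7 CPM (-1.03 ± 0.12, adjusted p = 1.25e-10). Both differences remained on day 42, at 1.46 ± 0.28 (adjusted p = 7.63e-05) and -0.61 ± 0.15 (adjusted p = 0.00121).

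Of 12 related microfibril and fibulin genes, 7 rose and 3 fell on day 14, when 32.4% of all genes rose and 29.9% fell. The share of the 12 that fell was near that of all genes. The highest was *Emilin3*, at 0.106 ± 0.0765 CPM in CTRL and 0.731 ± 0.366 CPM on day 14 (adjusted p = 2.38e-06), a gene with few counts. The lowest was *Efemp1*, the fibulin-3 gene (log2FC -0.65 ± 0.13, adjusted p = 2.69e-05). Of 10 genes of proteases that degrade elastin, 7 were tested and 6 of these rose on day 14. Macrophage elastase, *Mmp12*, went from 6.68 ± 3.15 to 229 ± 127 CPM (5.09 ± 0.44, adjusted p = 1.13e-15) and was still 3.90 ± 0.44 above CTRL on day 42 (adjusted p = 4.32e-10). *Mmp9* had a log2FC of 0.00 ± 0.28 on day 14 (adjusted p = 0.990), and *Mmp7*, *Elane* and *Ctsg* did not pass the filter on low counts.

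**Figure D5:**
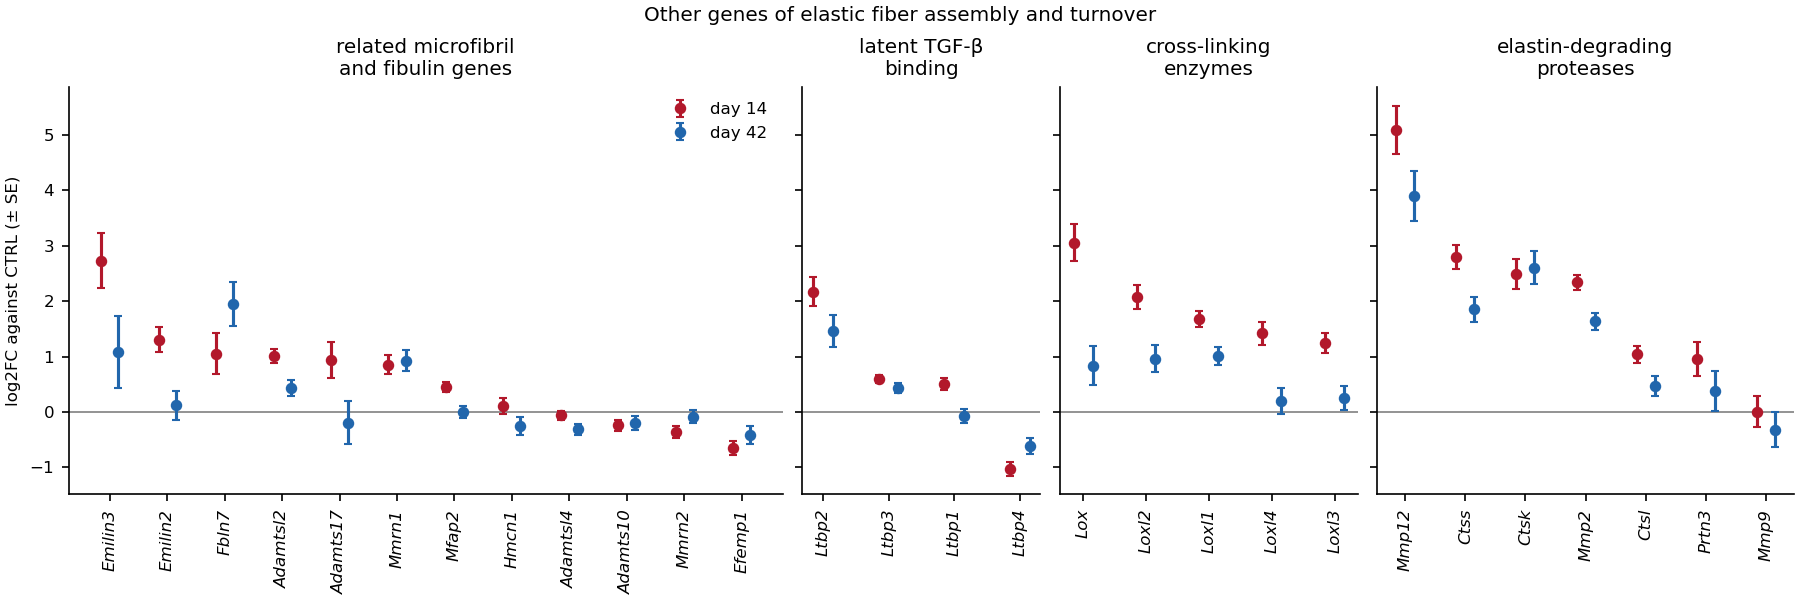
log2FC against CTRL (vertical, ± SE) on days 14 and 42 for the 28 other genes tested (horizontal), by list and ordered by day 14. Lysyl oxidases are above 0 on both days, *Mmp12* is at 5.09 and 3.90, and *Ltbp4* is at -1.03 and -0.61.

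The 3 genes whose 7 group means, centred on their own mean, lay closest to each member were named by the root mean square difference in log2 CPM. For *Eln* these were *Megf11*, *Ackr1* and *Wfdc17* (0.211 to 0.259, over a profile that spanned 4.68). For *Fbn1* they were *Gas2l3*, *Col3a1* and *Col15a1* (0.0617 to 0.100), and for *Fbln2* *Col6a3*, *Col7a1* and *Fstl1* (0.109 to 0.117), so that collagen genes were among the nearest of both. *Fbn2* was nearest to *Thbs2*, *Megf10* and *Cthrc1* (0.263 to 0.290). The nearest to *Mfap5* were *Pdgfrl*, *Cybb* and *Mark1*, and to *Mfap4* they were *Brca2*, *Svep1* and *Cdc7*. *Emilin1* was closest to *Tyms*, *Mms22l* and *Il4ra*, *Efemp2* to *Sept5*, *Kpna2* and *Nme1*, *Fbln5* to *Ptprr*, *Adam19* and *Dag1*, and *Fbln1* to *Acad12*, *Aldh4a1* and *Atp8a1*.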

How the data were processed

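The authors isolated RNA, prepared directional libraries from polyA RNA, sequenced them single-end and aligned the reads with STAR 2.7.0f to GRCm38 with the Ensembl 96 annotation. The deposited values are counts per gene, not normalized. Which program counted reads, and how it handled strand and multimapping reads, is not given in the sources used here. Samples were grouped by their labels, which name no batch and do not say whether mice of a group shared a cage or a day of dosing.

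From the counts, edgeR 4.0.16 in R 4.3.3 was used with filterByExpr, TMM factors, 1 mean per group over all 75 mice and the quasi-likelihood F test, adjusted by the Benjamini-Hochberg method over 16221 genes at a threshold of 0.05. CPM used the same factors, and values per kb used the union of exons of GENCODE mouse release 21. Ratios had 0.5 counts added and were tested by permutation, exactly for day 42. Total counts were 9240291 to 14665247 per library. No 2 libraries of a group agreed within sampling noise. The steps were tested on simulated data.

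All 10 members were named, with the highest and lowest of each other list on day 14 and the 3 nearest profiles, among genes with a mean log2 CPM above 1. *Loxl1*, *Loxl2* and the 3 promoter windows were chosen after values were seen. The members and lists were chosen with earlier results of these data known. Alternatives were DESeq2 1.42.0, library size or upper quartile scaling, 2 other filters, only the groups compared, a replicate block, a log2FC of at least 0.5, another pseudocount or medians for ratios, and each mouse left out in turn, the last chosen after seeing the data. Tables and figures were made with Python 3.11.15, scipy 1.17.1 and matplotlib 3.10.9.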

Additional observations from a re-analysis of the deposited data

Results flagged for a closer look

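Of 30 member groups of 4 to 10 mice examined for a mouse far from the others, 3 had one, and chance alone gives about 1 in 20 such groups. All 3 were replicate 7 of day 42, with 2092 CPM of *Eln* (355 to 1059.5 in the other mice), 2.61 CPM of *Fbn2* (0.259 to 0.992) and 136 CPM of *Mfap5* (57.3 to 81.2). In the same mouse, markers of fibroblasts of fibrotic lung summed to 1499.9 CPM, the highest of the 7 mice (959 to 1314 in the others), and striated muscle markers to 148 CPM, also the highest (7.21 to 108). It was the lowest of the 7 for lung epithelial markers (30646 CPM, 33766 to 39698 in the others), alveolar fibroblast markers (2593 CPM, 2779 to 4429), adventitial fibroblast markers (276 CPM, 327 to 464) and mesothelial markers (88.8 CPM, 127 to 246), and lay within the range of the others for smooth muscle and cartilage markers. Whether these moved the members was not tested.

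Effects against the shared CTRL mice differed between days 7 and 14, by the direct test between those days, for *Fbn2* (log2FC 2.83), *Eln* (1.93), *Fbln2* (1.504), *Fbn1* (1.00), *Mfap5* (0.85) and *Fbln5* (0.60), with edgeR adjusted p of 3.28e-06 to 0.00136. From day 14 to day 42 they differed for *Fbn2* (-2.92), *Eln* (-2.33), *Fbln2* (-1.95), *Fbn1* (-1.68), *Mfap4* (-1.18), *Emilin1* (-0.88), *Efemp2* (-0.58) and *Mfap5* (-0.54), with edgeR adjusted p of 7.95e-07 to 0.0168. The last of these was 0.0516 without replicate 2 of day 42.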

How the results depend on the processing

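The number of members called kept within 1.5 times its value in all 12 comparisons under DESeq2, library size or upper quartile scaling, both filters, fits of only the groups compared and the replicate block. A log2FC of at least 0.5 lowered it from 6 to 3 on day 35 and from 6 to 3 on day 42. Same-numbered mice did not deviate together (median correlation 0.0057 over 204 pairs, 0.0018 over other pairs), so the replicate block was not used. Under it no call of a member was lost, *Mfap4* passed on days 7 (0.36, adjusted p = 0.0494) and 42 (-0.55, adjusted p = 0.0179), *Fbln2* passed on day 35 (0.82, adjusted p = 0.0398), and uncalled values from day 35 to 42 turned for *Efemp2* (-0.0053) and *Emilin1* (-0.040). No filter on low counts ended the day 7 call of *Fbln2* (0.78, adjusted p = 0.0791), and with at least 10 counts in every mouse *Fbn2* was not tested. Fits of only the groups compared also called *Mfap4* on days 7 and 42 and *Fbln2* on days 35 and 42. The *Fbn2* to *Fbn1* ratio turned to -0.20 on day 21 and passed on day 42 (-0.95, permutation test, adjusted p = 0.0194) with 2 counts added, and the *Fbln5* to *Efemp2* ratio was -0.046 on day 35 with medians. Leaving out 1 mouse gave 0 to 1 called members from day 21 to 28. From day 28 to 35 it also gave 0 to 1, except without day 35 replicate 6, when both *Fbn2* and *Emilin1* were called. Single mice decided calls near the threshold. *Mfap4* passed on day 7 without CTRL replicate 2, day 7 replicate 9 or 10 or day 14 replicate 8 (lowest adjusted p = 0.0356), on day 42 without day 14 replicate 1 or 8 or day 42 replicate 4 or 7 (0.0389), and from day 7 to 14 without day 7 replicate 1 or 4 or day 14 replicate 1 or 8 (0.0304). *Fbln1* passed from day 7 to 14 without day 14 replicate 5 (0.0450), *Efemp2* from day 21 to 28 without day 21 replicate 7 or 8 or day 28 replicate 1 or 5 (0.0319), *Fbn2* from day 28 to 35 without day 35 replicate 6 (0.0481), and *Emilin1* then without day 28 replicate 8 or 11 or day 35 replicate 6 (0.0409). The calls that were lost are named beside their values in the results. Only uncalled values turned, *Fbn2* on day 7 (-0.14 and -0.0056) and day 42 (-0.60 to -0.015) and from day 21 to 28 (0.0088 to 0.21), *Mfap4* on day 28 (-0.025), *Fbln1* on day 35 (0.0053), *Fbln5* from day 14 to 21 (0.00032 to 0.011) and from day 35 to 42 (-0.032) and *Emilin1* from day 35 to 42 (-0.036). No call or direction of a member changed with library size or upper quartile scaling. Counts of 1 to 159 per library limit *Fbn2*. The causes were not tested.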
